A study of Thunnus thynnus with 30 samples.

Results

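Collagens and the genes that assemble the extracellular matrix were taken from a whole-larva RNA sequencing study of bluefin tuna (Thunnus thynnus), and their counts were described across age and dietary docosahexaenoic acid (DHA, an omega-3 fatty acid). Members were chosen by name alone: collagen alpha chains, laminin chains, lysyl oxidases, fibronectin, fibrillins, fibulins, SPARC and the collagen prolyl and lysyl hydroxylases. The rule found 58 of the 7295 rows of the count table, 33 of them collagens and 25 others, and no row carried the name of fibronectin (FN1). The 58 rows had 50 distinct names when capitals were ignored. The other 8 rows repeated a name in different capitals, as COL9A1 and Col9a1 do, and such pairs are kept apart and written as the table writes them. Reads of near-identical copies may be split between such rows, so each is uncertain as a measure of 1 gene. All 58 rows were tested, none had a library at 0, and their totals ran from 1198 counts (COL5A3) to 1163685 (COL1A1).

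The larvae were wild type (WT) and were fed from 2 to 15 days post hatch (dph) on rotifers, small live prey, whose DHA content, per g of dry weight, was 2, 3.6 or 10.9 mg; these diets are the low, medium and high levels. Each level had 3 tanks, and whole larvae were sampled at 5, 10 and 15 dph. This gave 9 groups of 3 libraries, except for high DHA at 5 dph with 2 (replicates 2 and 3), or 26 libraries in all. The labels do not say how many larvae went into a library, and p-values measure the spread between these libraries, which may be tanks or technical.

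Collagens are triple helices of alpha chains. Fibril-forming types make the tensile fibres of skin, bone, tendon and cartilage, fibril-associated types with interrupted helices (FACIT) coat those fibres, and others build networks, beaded filaments or anchoring fibrils, or cross the cell membrane. Laminins lay down the basement membrane, fibrillins and fibulins belong to elastic fibres, and SPARC binds collagen. Prolyl hydroxylases (P4HA) stabilise the helix, lysyl hydroxylases (PLOD) prepare the sites of cross-links, and lysyl oxidases (LOX) start the cross-links outside the cell. In fish larvae these genes serve the notochord, the first cartilages, the fins, the skin and the muscle septa.

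Library totals ran from 12805866 to 19169404 counts. Levels below are CPM, counts scaled to library size with TMM factors; they are not per length, so they compare groups for 1 row and not one row with another. Fold changes are log2 with a standard error, adjusted p-values come from edgeR's quasi-likelihood test with Benjamini-Hochberg adjustment over all 7292 tested rows, and "rose", "fell" and "called" mean an adjusted p under 0.05. Member counts from other fits (with a covariate, of the compared groups alone, or without a library) are given without the share of all rows called there. They show how the member count moved, and not whether members differed from the table. The balance of very long against short transcripts differed between libraries. A length score, the mean log2 CPM of 31 rows of very long genes minus that of 40 rows of short respiratory chain genes, averaged -3.09 with low, -2.14 with medium and -2.32 with high DHA at 10 dph. At 5 dph it averaged -1.79, -2.81 and -2.28, and at 15 dph -2.06, -2.19 and -1.89, in the same order. It was lowest for low replicate 2 at 10 dph (-3.68), then for medium replicate 2 at 5 dph (-3.17). At 5 dph its range with low DHA (-1.95 to -1.66) lay apart from those with medium (-3.17 to -2.41) and high (-2.31 to -2.26). At 10 dph low (-3.68 to -2.54) and medium (-2.34 to -2.03) did not overlap. High and medium were apart from each other at 5 dph as well. At 15 dph high (-2.032 to -1.8174) lay just above medium (-2.4477 to -2.0322). In these pairs the score and the diet cannot be told apart, also where the score was a covariate and calls were lost or gained. In whole larvae, fewer cells of a type and less RNA per cell cannot be told apart, which holds for each result below.

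Collagens and matrix genes rose more often than they fell from 5 to 10 dph. From 5 to 10 dph, averaged over DHA levels, 33 of the 58 members rose and 4 fell, where 26.7% of all tested rows rose and 31.3% fell (58.0% called); the members' median log2 fold change was 0.26 against -0.02 over all rows. From 10 to 15 dph, 20 members rose and 7 fell (34.5% and 12.1%), where 31.8% of all rows rose and 25.9% fell (57.7% called). The members' share of rises was thus near that of the table in this step, and their share of falls was below it. Once the length score was a covariate, 31 rose and 2 fell in the first step. In the second, 6 rose and 9 fell with it, so the split between rises and falls from 10 to 15 dph moved with that adjustment. The 6 were Col7a1 (0.91), COL21A1 (0.48), Plod3 (0.43), P4HA1 (0.35), COL6A3 (0.31) and col27a1b (0.16), and the other rises of that step were not called. The 9 were the 4 type 9 rows, Col11a1, col21a1, Lamb1, LAMB1 and LOXL1, at -0.80 (Col9a1) to -0.26 (LOXL1). The summed CPM of all members was 9572 ± 248 (SD, n = 3) with low, 8584 ± 2262 (n = 3) with medium and 9458 ± 582 (n = 2) with high DHA at 5 dph. At 10 dph it was 13990 ± 586, 10295 ± 2053 and 14998 ± 1209, and at 15 dph 13643 ± 1920, 14309 ± 1731 and 10682 ± 2296 (n = 3 each).

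**Figure D1:**
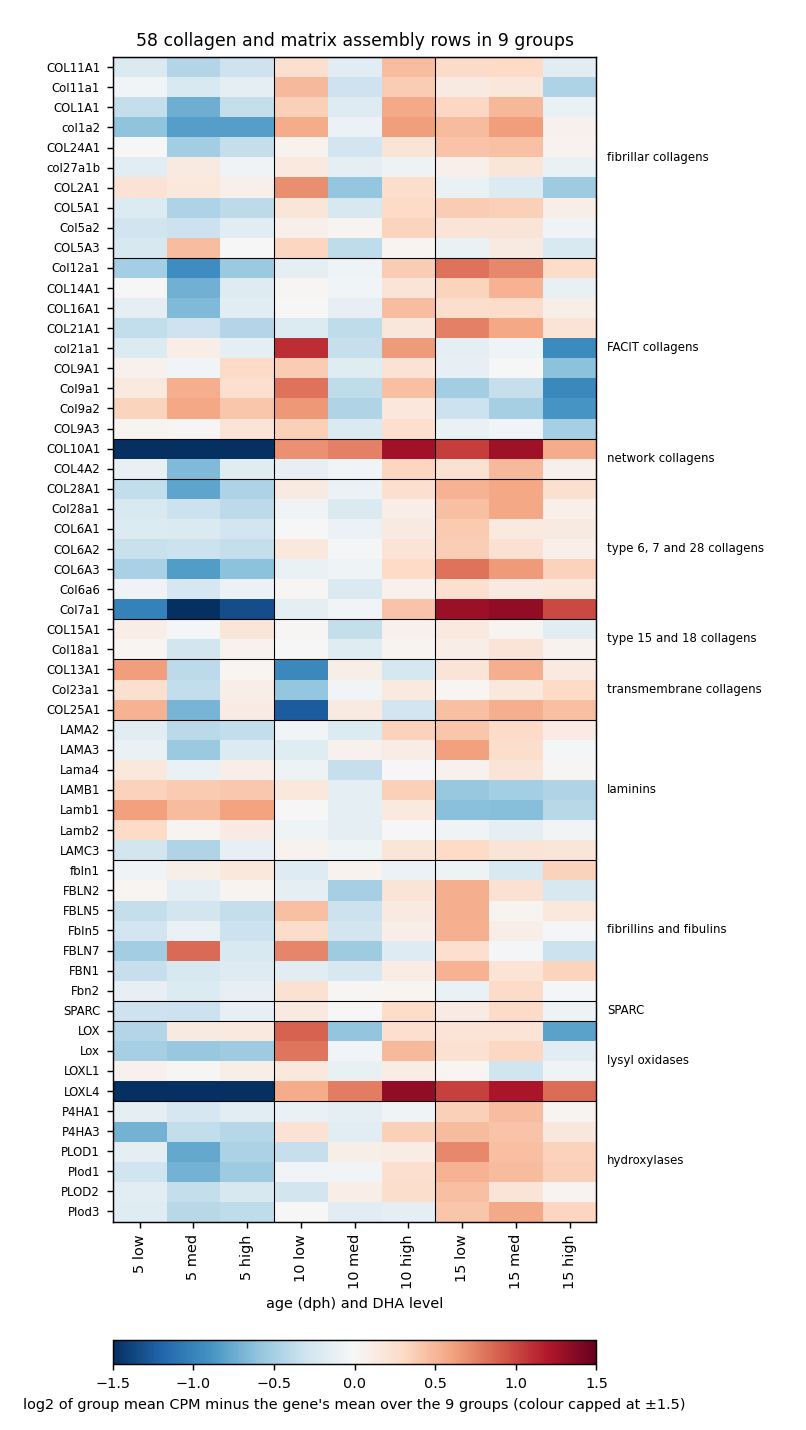
Each cell is the log2 of a group's mean CPM minus that row's mean over the 9 groups (red higher, blue lower, colour capped at 1.5), for the 58 rows in family order, with age in dph and DHA level along the bottom. COL10A1, LOXL4 and Col7a1 are low in all 3 groups at 5 dph, and the cartilage rows COL2A1, Col9a1 and Col9a2 have their highest group mean with low DHA at 10 dph.

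At 5 dph, members were called in 1 of the 3 comparisons of diets. High against low DHA called 0 members (edgeR; 0.0823% of all rows called, 0.0549% higher and 0.0274% lower), and DESeq2 called 0. In edgeR 3 members had an unadjusted p under 0.05, as did 790 of the 7292 tested rows, a larger share. An edgeR fit of these 2 groups alone called 13 members, 3 higher and 10 lower, so the count of 0 depends on the fit. The share of all rows called in that fit is not given here. Medium against low called 10 members, 2 higher and 8 lower, where 27.2% of all rows were called, 16.7% higher and 10.4% lower. The libraries of both groups did not overlap for 18 members and for 45.7% of all rows. The count of called members was 0 once the length score was a covariate. It was 4, 4 and 5 without low replicate 1, 2 or 3, and 5, 0 and 22 without medium replicate 1, 2 or 3. High against medium called 0 members (0.0% of all rows called), DESeq2 called 0, and 4 were called without medium replicate 3. In edgeR 6 members had an unadjusted p under 0.05, as did 1417 of the 7292 tested rows, again a larger share. Here 12 members and 38.1% of all rows did not overlap, and in high against low 21 members and 54.3%.

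At 10 dph, high against low DHA called 6 members, 5 higher and 1 lower, where 19.4% of all rows were called higher and 4.39% lower (23.8% called). The members' share called was therefore below that of the table, and their median log2 fold change was 0.13 against 0.01 over all rows. The groups did not overlap for 25 members and for 34.3% of all rows. The count was 0 once the length score was a covariate, and the members' median was then -0.11. It was 2 without low replicate 2, 3 without low replicate 3 and 3 without high replicate 1. Medium against low called 18 members, 4 higher and 14 lower, while 24.3% of all rows were called higher and 10.6% lower (34.9% called), and 25 members and 44.0% of all rows did not overlap. Once the length score was a covariate 3 were called, all lower (Col11a1, COL9A3 and FBLN2), and the median moved from -0.18 to -0.49; every other member's call in this comparison was lost there. High against medium called 0 members (edgeR; 0.137% of all rows called, 0.0549% higher and 0.0823% lower). However, 54 of the 58 were higher with high DHA, and the median was 0.36 against 0.00 over all rows. In edgeR 29 members had an unadjusted p under 0.05, as did 1222 of the 7292 tested rows, a smaller share. The groups did not overlap for 31 members and for 22.6% of all rows. DESeq2 called 2, Col11a1 and COL9A3, and 13 were called without medium replicate 1.

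At 15 dph, high against low DHA called 5 members, 1 higher and 4 lower, where 7.46% of all rows were called, 2.99% higher and 4.47% lower. The groups did not overlap for 18 members and for 24.2% of all rows. In all, 51 of the 58 members were lower with high DHA, and the median was -0.30 against 0.00 over all rows. In edgeR 24 members had an unadjusted p under 0.05, as did 1587 of the 7292 tested rows, a smaller share. The count of called members was 13 once the length score was a covariate, 1 higher and 12 lower. It was 2, 2, 2, 0 and 9 without low replicate 1, low replicate 3 and high replicates 1, 2 and 3. Medium against low called 0 members (edgeR; 0.0686% of all rows called, 0.0274% higher and 0.0411% lower), and DESeq2 called 0. In edgeR 5 members had an unadjusted p under 0.05, as did 658 of the 7292 tested rows, a similar share. High against medium called 8, 1 higher and 7 lower (16.9% of all rows called, 7.84% higher and 9.08% lower), and 19 once the length score was a covariate. The count was 5 without medium replicate 2 and 5, 2 and 13 without high replicates 1, 2 and 3. The groups did not overlap for 6 members and 14.4% of all rows in medium against low, and for 17 members and 39.9% in high against medium. The comparisons with high DHA share the high libraries, and those with low DHA the low ones.

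**Figure D2:**
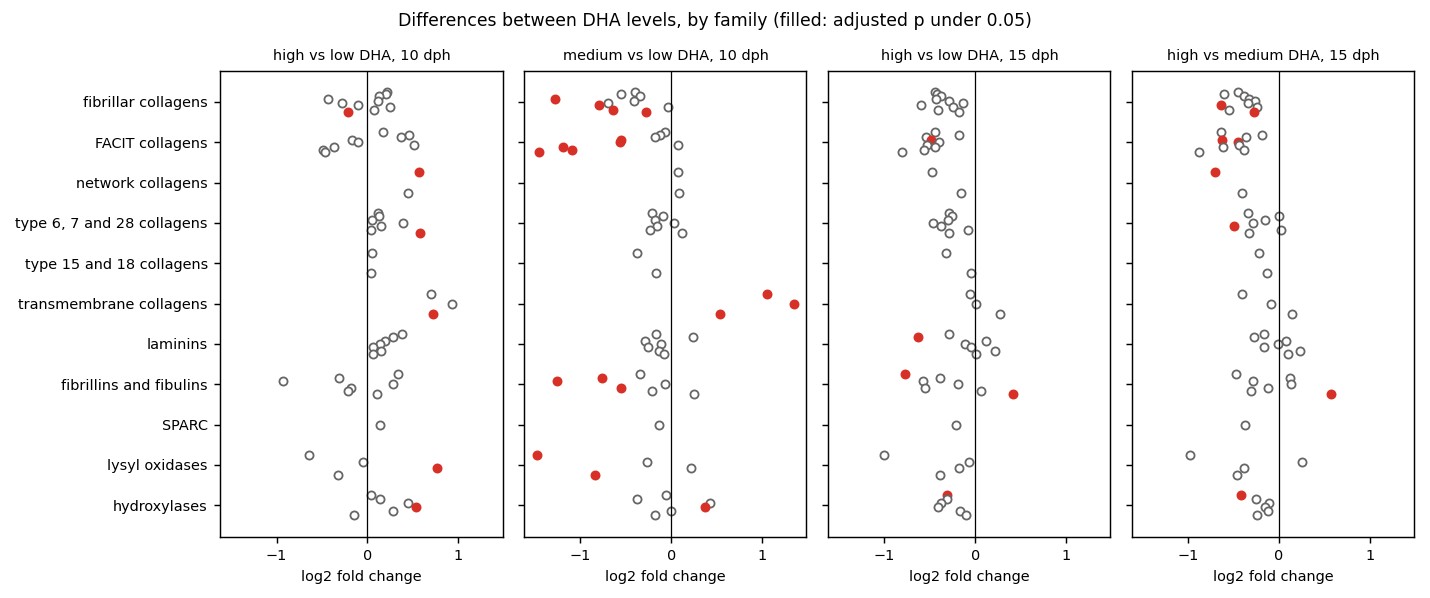
Each point is a member row, its log2 fold change between DHA levels on the horizontal axis and its family on the vertical axis, in 4 comparisons at 10 and 15 dph; filled red points had an adjusted p under 0.05. With medium against low DHA at 10 dph, all 10 fibrillar and 8 of 9 FACIT rows lie left of 0 (all but Col12a1) and the 3 transmembrane collagens right of it; at 15 dph high DHA, 51 of 58 points lie left of 0 against low DHA.

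Type 1 collagen, the main fibril of bone, skin and tendon, gained RNA with age. COL1A1 stood at 2135, 1938 and 1935 CPM in the low DHA libraries at 5 dph, at 1355, 1068 and 2209 with medium and at 1953 and 2051 with high. At 10 dph the values were 2966, 3554 and 3371 with low, 2658, 1453 and 2621 with medium, and 4152, 3135 and 4092 with high DHA. All low and high libraries were higher at 10 than at 5 dph, while 1 medium library (1453) lay inside the 5 dph range. COL1A1 rose by 0.73 ± 0.15 on the log2 scale from 5 to 10 dph (adjusted p = 0.000266). Its partner chain col1a2 rose by 1.12 ± 0.14 (adjusted p = 8.36e-07), from 400 to 753 CPM over the 5 dph libraries to 607 to 1615 at 10 dph. From 10 to 15 dph the log2 fold changes were -0.01 ± 0.14 for COL1A1 (adjusted p = 0.966) and 0.02 ± 0.13 for col1a2 (adjusted p = 0.898). Markers of fibroblasts and tendon moved with the first step: 4 of 5 fibroblast rows rose and 1 fell (group sums of 156 to 168 CPM at 5 dph and 219 to 279 at 10 dph), and both tendon rows rose (95.8 to 120 and 132 to 191 CPM). In the second step, where neither type 1 row was called, 4 of 5 fibroblast rows and 1 of 2 tendon rows fell and 0 rose. Their group sums at 15 dph were 215 to 270 CPM and 122 to 144 CPM. None of these marker rows was at 0, and their part in the type 1 values was not tested.

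The ratio of COL1A1 to col1a2, which compares groups and not transcript numbers because neither row is scaled by length, was 3.19 ± 0.10 (SD, n = 3) with low, 2.86 ± 0.17 (n = 3) with medium and 3.75 ± 0.26 (n = 2) with high DHA at 5 dph. At 10 and 15 dph the group means lay between 2.36 and 2.58. The lowest 5 dph library (2.67) was just under the highest 10 dph library (2.70), and the other 5 dph libraries were above all the older ones. By diet, type 1 chains were called once in the fit of all 26 libraries: col1a2 fell in medium against low DHA at 10 dph, by 0.64 ± 0.23 (adjusted p = 0.034). That call was lost without low replicate 2 or medium replicate 2, at log2 fold changes between -0.62 and -0.42, and once the length score was a covariate. An edgeR fit of the compared groups alone also called col1a2 lower in high against low DHA at 5 dph (-0.24, adjusted p = 0.0123). COL1A1 differed by -0.56 ± 0.25 in medium against low DHA at 10 dph and was not called. At 15 dph COL1A1 read 3813, 2427 and 3335 CPM with low, 4238, 3629 and 3013 with medium, and 2107, 1799 and 3249 with high DHA. High DHA overlapped both other levels through its replicate 3, with a log2 fold change of -0.42 ± 0.24 against low (adjusted p = 0.333).

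**Figure D3:**
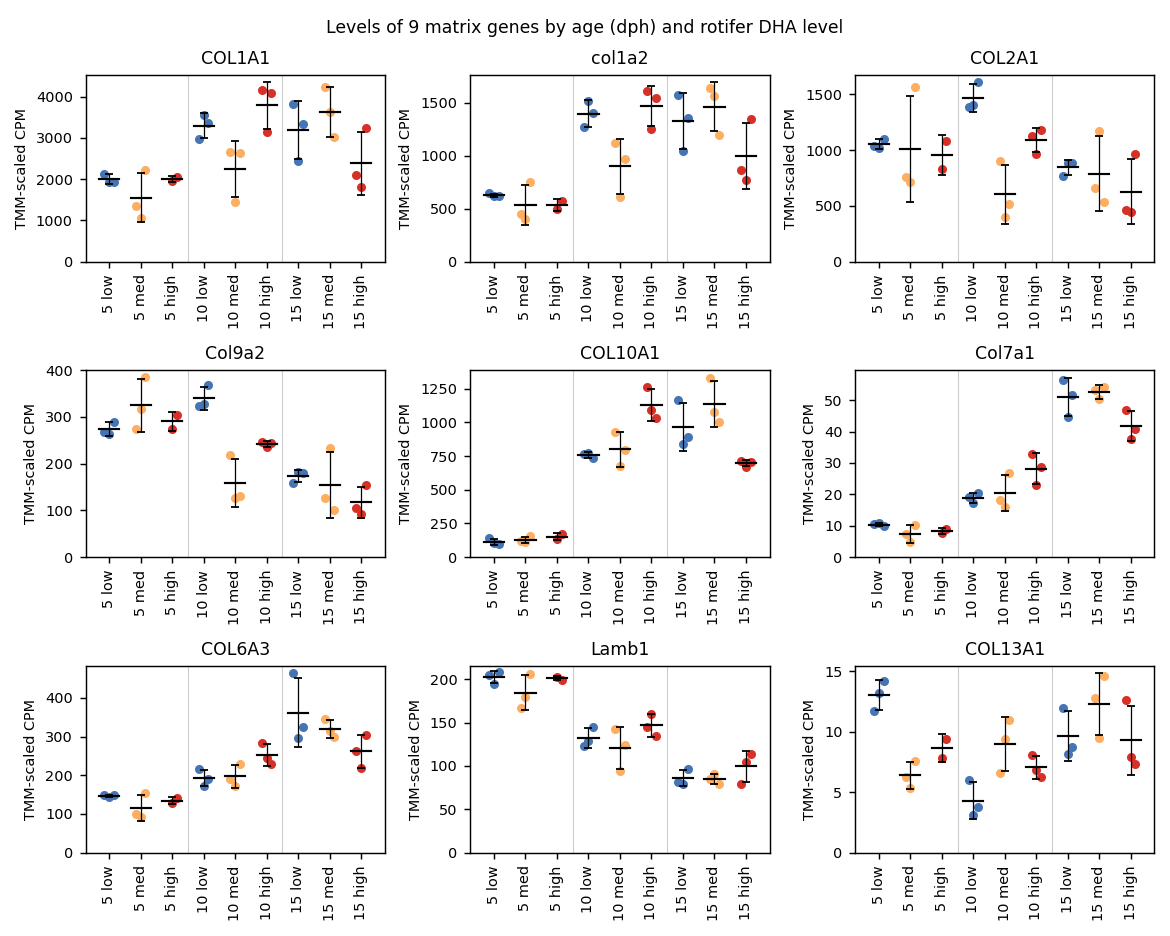
Points are libraries and bars are group means with SD, in TMM-scaled CPM on a linear axis from 0, for 9 rows in the 9 groups of age and DHA level (blue low, orange medium, red high). COL10A1 stays at or under 169 CPM in all 5 dph libraries and at or above 671 in all older ones, Lamb1 declines at each age, and COL2A1 and Col9a2 drop with medium DHA at 10 dph.

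Among the other fibril-forming chains, type 5 chains regulate the thickness of type 1 fibrils and type 11 chains do so in cartilage. Rises from 5 to 10 dph were called for COL5A1 (0.44 ± 0.13, adjusted p = 0.00554), Col5a2 (0.41 ± 0.07, adjusted p = 1.54e-05), COL11A1 (0.50 ± 0.12, adjusted p = 0.00141) and Col11a1 (0.32 ± 0.11, adjusted p = 0.02). The Col11a1 call was lost without 5 dph high replicate 2 (0.29) or 10 dph medium replicate 1 (0.27). COL5A3, the least counted member at 1.45 to 5.34 CPM, differed by -0.08 ± 0.21 (adjusted p = 0.757). COL24A1, known from mammalian bone, rose at both steps, by 0.28 ± 0.09 and 0.32 ± 0.09, so 7 of the 10 fibrillar rows rose from 5 to 10 dph and 1 from 10 to 15 dph. Its second rise was not called once the length score was a covariate. None of the 10 fell at either step. By diet, COL24A1 fell in medium against low DHA at 5 dph (-0.52). That call was lost in 4 of 6 fits without a library (-0.51 to -0.37) and once the length score was a covariate (-0.18).

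col27a1b, a fibrillar chain that in zebrafish serves the notochord and cartilage, was called in 4 diet comparisons, each by a small amount. At 5 dph it read 58.6, 55.4 and 56.5 CPM with low and 66.9, 76.7 and 65.3 with medium DHA, a rise of 0.29 ± 0.08 (adjusted p = 0.0119). The groups did not overlap. At 10 dph it read 66.6, 74.4 and 69.3 with low, 57.6, 60.6 and 55.5 with medium and 62.8, 57.5 and 60.9 with high DHA, with low above both. It fell by 0.28 ± 0.08 with medium and by 0.22 ± 0.08 with high DHA (adjusted p = 0.00808 and 0.0486). At 15 dph it fell by 0.28 ± 0.08 in high against medium DHA. The 10 dph high DHA call was lost in 5 of the 6 fits that left out a library (all but low replicate 1; -0.27 to -0.18), the 5 dph call without medium replicate 2 (0.21), and the 15 dph call without medium replicate 2 or 3 or high replicate 2 (-0.28 to -0.25). Once the length score was a covariate, the log2 fold changes were 0.12 at 5 dph, -0.12 with medium and -0.09 with high against low DHA at 10 dph, none called, and -0.23 at 15 dph, called.

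The cartilage collagens took another course. COL2A1, the main cartilage and notochord sheath fibril, was not called from 5 to 10 dph (-0.02 ± 0.19, adjusted p = 0.921), and at 10 dph its 3 diet groups did not overlap. It read 1383, 1405 and 1613 CPM with low, 903, 396 and 517 with medium and 1123, 969 and 1176 with high DHA. The low libraries lay above all others of that age and the medium ones below. COL2A1 fell in medium against low DHA by 1.28 ± 0.32 (adjusted p = 0.00349), and leaving out any 1 library kept the call, at -1.69 to -1.05. High against low differed by -0.43 ± 0.32 (adjusted p = 0.352), the same in size as the -0.43 ± 0.32 at 15 dph (adjusted p = 0.47). An edgeR fit of the compared groups alone called COL2A1 lower in high against low DHA at 10 dph (-0.466, adjusted p = 0.0497).

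Type 9 collagen, a FACIT type that coats cartilage fibrils, was counted in 4 rows, and all 4 fell in medium against low DHA at 10 dph. Col9a2 read 324, 327 and 368 CPM with low, 218, 127 and 130 with medium and 246, 235 and 245 with high DHA, with no overlap between any of the 3 levels. It fell by 1.10 ± 0.23 (adjusted p = 0.000809). Col9a1 fell by 1.19 ± 0.33, COL9A1 by 0.56 ± 0.15 and COL9A3 by 0.57 ± 0.13 (adjusted p = 0.0062, 0.00537 and 0.00142). Col11a1 fell with them, by 0.80 ± 0.19, and so did the FACIT row col21a1, by 1.46 ± 0.39, from 99.4, 113 and 118 CPM to 67.2, 27.5 and 25.3. All 6 rows kept the call without any 1 library. The length score of these groups differed (-3.09 with low, -2.14 with medium): with it as a covariate Col11a1 (-1.13) and COL9A3 (-0.64) were called, and Col9a2 (-1.09, adjusted p = 0.0708), COL2A1 (-1.59, adjusted p = 0.072), Col9a1 (-0.95), COL9A1 (-0.74) and col21a1 (-1.33) were not.

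Non-collagen cartilage markers summed lower in the same medium DHA libraries. The 9 rows of the cartilage list (aggrecan, matrilins, HAPLN1, Sox9 and CNMD) summed to 581 ± 38.3 CPM with low, 435 ± 59.8 with medium and 594 ± 44.6 with high DHA at 10 dph (SD, n = 3). No row was at 0, 4 of the 9 fell in medium against low DHA, and their part in the collagen result was not tested. The medium libraries were below all others in that sum, and the high and low ones overlapped. Row by row, the median log2 fold change of the 9 was -0.97 in medium and -0.45 in high against low DHA. In the latter 1 row was called higher and 0 lower, so the sum does not show what most rows did.

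Of the type 9 rows only Col9a2 was called from 5 to 10 dph, at -0.33. That call was lost in 15 of 17 fits without a library (-0.35 to -0.28), and once the length score was a covariate (-0.33, adjusted p = 0.0848). The step from 10 to 15 dph is averaged over DHA levels, and the medium to low difference was not the same at both ages. It went from -0.558 to 0.132 for COL9A1 and from -1.195 to 0.182 for Col9a1. Falls within a single level were not tested. In that mean all 4 type 9 rows fell: Col9a1 by 0.91 ± 0.19 (adjusted p = 0.000335), Col9a2 by 0.69 ± 0.13 (adjusted p = 0.000173), COL9A1 by 0.38 ± 0.09 (adjusted p = 0.000764) and COL9A3 by 0.35 ± 0.07 (adjusted p = 0.000445). COL2A1 differed by -0.40 ± 0.18 (adjusted p = 0.0658), and was called when 10 dph medium replicate 2 (-0.48), 15 dph medium replicate 2 (-0.54) or 15 dph high replicate 3 (-0.56) was left out. Col11a1 differed by -0.24 ± 0.11 (adjusted p = 0.065). Col11a1 was called without 10 dph low replicate 2, 10 dph medium replicate 2, 15 dph medium replicate 2 or 15 dph high replicate 3, at -0.32 to -0.28. It was also called by DESeq2 (-0.242, adjusted p = 0.0497) and, in edgeR, once the length score was a covariate (-0.401, adjusted p = 0.0285). The 15 dph medium library of replicate 2 read 1173 CPM for COL2A1, 212 for Col9a1 and 88.3 for col21a1, where its 2 partners read 658 and 535, 84.7 and 70.2, and 32.3 and 26. The cartilage markers summed to 542 ± 81.1, 520 ± 54.1 and 407 ± 62.7 CPM with low, medium and high DHA in the 15 dph larvae, and 4 of their 9 rows also fell with age.

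At 15 dph, COL9A1 was the 1 collagen row that edgeR called in high against low DHA. It read 141, 127 and 197 CPM with low, 162, 177 and 169 with medium and 109, 96.1 and 125 with high DHA, and no high library reached a library of the other levels. It fell by 0.49 ± 0.15 against low (adjusted p = 0.0464) and by 0.62 ± 0.15 against medium (adjusted p = 0.00836). The first call was lost without low replicate 3 or high replicate 1 or 2 (-0.48 to -0.28), and the second without high replicate 2 (-0.54). With rows that differ in capitals summed, COL9A1 was not called against low (-0.47, adjusted p = 0.114). Col11a1 differed by -0.60 ± 0.19 against low (adjusted p = 0.0567) and was called by DESeq2 (-0.60, adjusted p = 0.0246) and once the length score was a covariate (-0.66, adjusted p = 0.034). COL9A3 and Col11a1 fell against medium by 0.45 ± 0.13 and 0.64 ± 0.19 (adjusted p = 0.0203 and 0.0262). The COL9A3 call was lost without medium replicate 2 or high replicate 1 or 2 (-0.44 to -0.37), and the Col11a1 call without medium replicate 1 or 2 or high replicate 1 or 2 (-0.67 to -0.50). All 10 fibrillar and all 9 FACIT rows had a negative log2 fold change in high against low DHA at this age, with medians of -0.40 and -0.49.

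FACIT rows of types 12, 14 and 16, found with type 1 fibrils or in other tissues, rose from 5 to 10 dph. Col12a1, of tendon and skin, rose at both steps, by 0.73 ± 0.13 and 0.54 ± 0.13 (adjusted p = 9e-05 and 0.00102). Its second rise was not called once the length score was a covariate. COL14A1 and COL16A1 rose from 5 to 10 dph, by 0.36 ± 0.14 and 0.44 ± 0.11, the first lost in 8 of 17 fits without a library (0.29 to 0.36). They fell in medium against low DHA at 5 dph, by 0.70 ± 0.24 and 0.52 ± 0.19, calls lost in 5 of 6 fits without a library (all but medium replicate 3; -0.75 to -0.41). The rows named COL21A1 and col21a1 went apart from 10 to 15 dph. COL21A1, at 3.9 to 7.49 CPM over the 10 dph libraries and 5.8 to 14 at 15 dph, rose by 0.65 ± 0.12 (adjusted p = 9.94e-05), and col21a1, at 25.3 to 118 and 14.5 to 88.3 CPM, fell by 0.86 ± 0.23 (adjusted p = 0.00299). With the rows of the pair summed the log2 fold change was -0.69, so the direction given for COL21A1 holds for that row alone.

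COL10A1, a network-forming collagen of maturing cartilage that in teleosts is also made by bone-forming cells, changed most among the collagens. It stood at 141, 106 and 97.1 CPM with low, 119, 115 and 156 with medium and 133 and 169 with high DHA at 5 dph. At 10 dph it read 768, 774 and 735 with low, 927, 673 and 797 with medium and 1260, 1092 and 1031 with high DHA. Every 10 dph library was above every 5 dph library. The rise was 2.75 ± 0.10 on the log2 scale, or 6.72-fold (adjusted p = 6.02e-15), and from 10 to 15 dph the log2 fold change was 0.05 ± 0.09.

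COL10A1 was highest with high DHA at 10 dph and lowest with it at 15 dph. At 10 dph high DHA stood above all libraries of the other levels, and the rise against low was 0.57 ± 0.15 (adjusted p = 0.0114). The call was lost without low replicate 2 or 3 or high replicate 1 (0.48 to 0.54), and once the length score was a covariate (0.39). At 15 dph it read 1167, 839 and 893 with low, 1326, 1080 and 1004 with medium and 714, 671 and 703 with high DHA, with high below all others. It fell by 0.71 ± 0.15 against medium (adjusted p = 0.00488), kept without any 1 library, and differed by -0.47 ± 0.15 against low, not called. The ratio of COL10A1 to COL2A1 was 0.109 ± 0.024, 0.139 ± 0.034 and 0.158 ± 0.004 at 5 dph with low, medium and high DHA. It was 0.521 ± 0.056, 1.42 ± 0.35 and 1.04 ± 0.14 at 10 dph, and 1.16 ± 0.31, 1.60 ± 0.60 and 1.25 ± 0.45 at 15 dph, where the levels overlapped. Low DHA had the lowest ratio at 10 dph, with no overlap. Of the bone markers 1 row was in the table, ALPL, at 89.1 ± 13.2, 77.2 ± 7.53 and 76.1 ± 2.62 CPM at 10 dph and 70.0 ± 8.38, 55.6 ± 12.9 and 45.2 ± 5.08 at 15 dph; it fell in high against low DHA at 15 dph, and its part in the COL10A1 values was not tested. The other network collagen, COL4A2 of basement membranes, rose from 5 to 10 dph by 0.37 ± 0.13 (adjusted p = 0.0185) and was not called by diet.

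**Figure D4:**
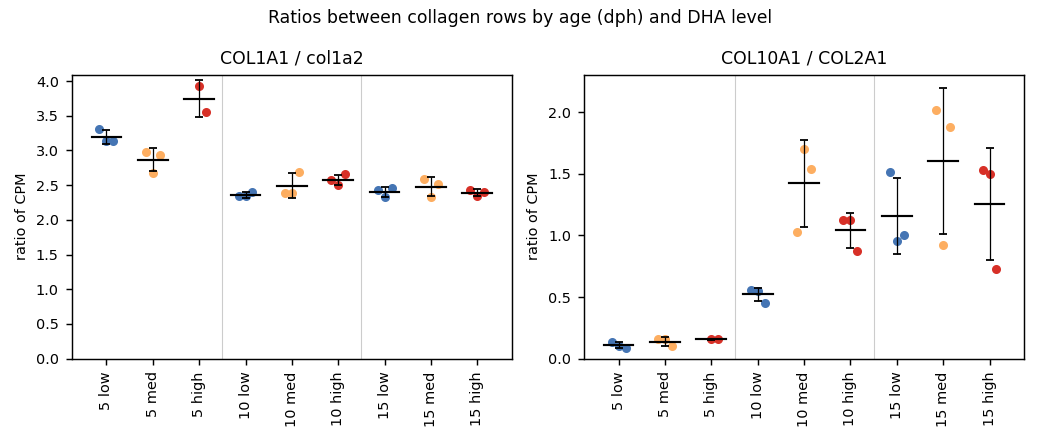
Ratios of CPM between collagen rows, by library (points) with group mean and SD (bars), on linear axes from 0, in the 9 groups of age and DHA level (blue low, orange medium, red high). COL1A1 over col1a2 drops from group means of 2.86 to 3.75 at 5 dph to 2.36 to 2.58 later, and COL10A1 over COL2A1 is lowest at 5 dph and, at 10 dph, lower with low DHA than in the other levels.

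Most collagens of filaments and anchoring fibrils rose at both steps, with fewer rises called in the second once the length score was a covariate. Col7a1, whose anchoring fibrils tie epidermis to dermis, read 10.6, 10.8 and 9.79 CPM with low, 7.34, 4.68 and 10.3 with medium and 7.71 and 8.94 with high DHA at 5 dph. It read 19, 17.2 and 20.5, then 18.2, 16.1 and 26.9, then 32.9, 23.1 and 28.6 at 10 dph, and 56.5, 44.6 and 51.8, then 53.3, 50.3 and 54.3, then 47, 37.6 and 40.8 at 15 dph, in the same order of levels. The 3 ages did not overlap. Col7a1 rose by 1.36 ± 0.12 and then by 1.12 ± 0.11 (adjusted p = 7.04e-09 and 2.4e-08). At 10 dph it was higher with high than with low DHA by 0.58 ± 0.19 (adjusted p = 0.028), a call lost without low replicate 1, 2 or 3 or high replicate 1 (0.45 to 0.60), and once the length score was a covariate (0.24, adjusted p = 0.634). The 5 epidermis marker rows, keratin and envelope genes with Tp63, summed to 472 ± 11.4 CPM with low, 707 ± 66.3 with medium and 601 ± 7.81 with high DHA at 10 dph. Against low DHA, 3 of the 5 rose with high and 4 with medium DHA, and Col7a1 was not called with medium (0.12). With age, 1 of the 5 rose from 5 to 10 dph and all 5 from 10 to 15 dph. Their part in the Col7a1 values was not tested.

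Type 6 chains form beaded filaments around muscle fibres and in skin. COL6A1, COL6A2 and COL6A3 rose from 5 to 10 dph by 0.25 ± 0.07, 0.45 ± 0.07 and 0.69 ± 0.10, while Col6a6 differed by 0.09 ± 0.10. COL6A3 rose again to 15 dph, by 0.55 ± 0.10 (adjusted p = 6.77e-05), as did COL6A1 by 0.21 ± 0.07. COL6A3 stood at 92.2 to 153 CPM at 5 dph, 171 to 284 at 10 dph and 219 to 464 at 15 dph, so only the last 2 ages overlapped. Both type 28 rows, a collagen of nerve-associated basement membranes in the mouse, rose at both steps; COL28A1 rose by 0.64 ± 0.08 and 0.35 ± 0.07 (adjusted p = 5.34e-07 and 0.000388). The first rise of Col28a1 was lost without 5 dph high replicate 2 (0.23). Of these 7 rows 6 rose from 5 to 10 dph and 5 from 10 to 15 dph. Once the length score was a covariate, Col7a1 and COL6A3 stayed called in the second step. COL6A1 and both type 28 rows did not. By diet, COL28A1 fell in medium against low DHA at 5 dph (-0.41). Col28a1 fell in high against medium DHA at 15 dph (-0.50). Each of these 2 diet calls was lost in 4 of 6 fits without a library. Type 15 and 18 collagens of basement membrane zones, COL15A1 and Col18a1, were called in no comparison. Their levels spanned 8.56 to 19.7 and 104 to 184 CPM over all 26 libraries.

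**Figure D5:**
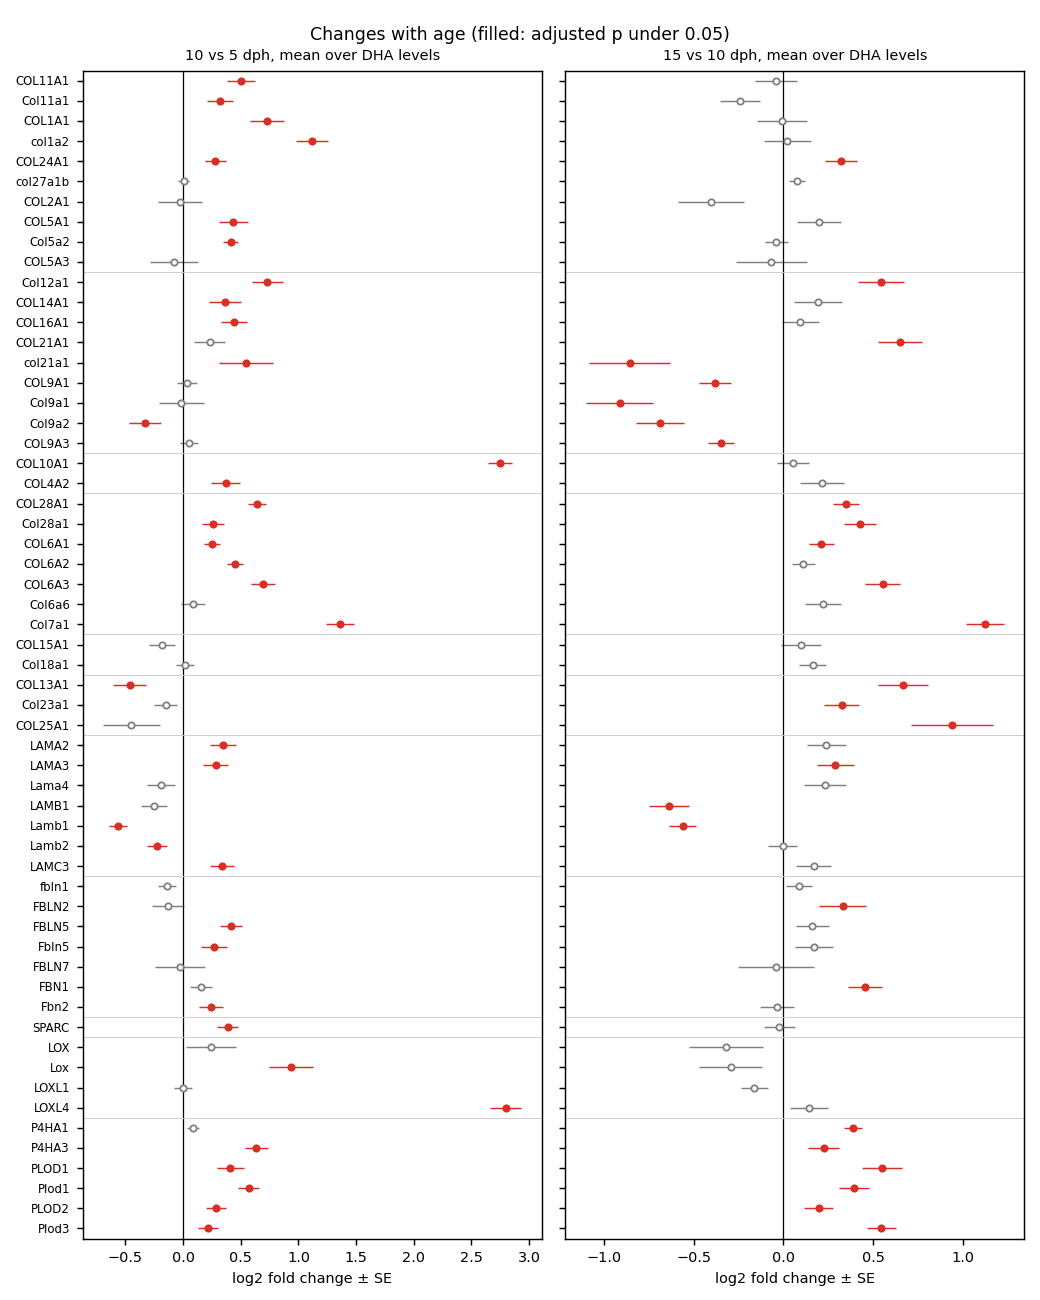
Log2 fold change with standard error from 5 to 10 dph (left) and from 10 to 15 dph (right), averaged over DHA levels, for each of the 58 rows in family order; filled red points had an adjusted p under 0.05. COL10A1 (2.75) and LOXL4 (2.80) lie far right in the first step, Col7a1 lies right in both, and the type 9 rows lie left in the second.

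The 3 transmembrane collagens, types 13, 23 and 25, moved together with medium DHA and in opposite directions at 5 and 10 dph. COL13A1, which in the mouse serves the neuromuscular junction, read 11.7, 13.2 and 14.2 CPM with low, 6.28, 5.36 and 7.56 with medium and 7.81 and 9.44 with high DHA at 5 dph. At 10 dph it read 6.03, 3.11 and 3.76 with low, 6.57, 9.4 and 11 with medium and 8.05, 6.83 and 6.25 with high DHA. The low libraries were the highest at 5 dph and the lowest at 10 dph, without overlap. Against low DHA, medium was lower by 1.02 ± 0.24 at 5 dph (adjusted p = 0.00679) and higher by 1.05 ± 0.25 at 10 dph (adjusted p = 0.0023). COL25A1, needed for motor innervation in the mouse, fell by 1.18 ± 0.40 and then rose by 1.35 ± 0.43, and Col23a1 fell by 0.60 ± 0.17 and then rose by 0.54 ± 0.17. Col23a1 also rose in high against low DHA at 10 dph, from 18.4, 16.7 and 13.1 to 28.9, 30.3 and 21 CPM (0.73 ± 0.17, adjusted p = 0.00545), and kept the call without any 1 library.

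The low to medium order of the length score reversed between these ages as well (-1.79 against -2.81 at 5 dph, -3.09 against -2.14 at 10 dph). With it as a covariate none of the 3 rows was called; COL13A1 stood at -0.23 and 0.36, Col23a1 at -0.24 and 0.19, COL25A1 at 0.11 and 0.21, and in high against low DHA at 10 dph Col23a1 stood at 0.45. The score cannot be told apart from low against medium DHA at these ages, and its part in the result was not tested otherwise. At 5 dph, COL13A1 lost the call without medium replicate 2 (-0.92), Col23a1 without low replicate 3 or medium replicate 2 (-0.55 and -0.47), and COL25A1 in all 5 fits other than that without medium replicate 3 (-1.20 to -0.86). At 10 dph, COL25A1 lost it without low replicate 2 or 3 (1.11 and 0.91) and Col23a1 without low replicate 3 or medium replicate 1 (0.36 and 0.38). With age, COL13A1 fell from 5 to 10 dph in the mean over DHA levels (-0.46), a call kept without any 1 library. In the values above, every low DHA library was lower at 10 than at 5 dph. The medium and the high libraries each overlapped between these ages, and the medium mean was higher at 10 dph. From 10 to 15 dph all 3 rows rose, COL13A1 by 0.67 ± 0.14 (adjusted p = 0.000345), and none of these rises was called once the length score was a covariate.

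Among laminins, the 3 beta chain rows each fell at 1 step or more, while 2 alpha chains and a gamma chain rose from 5 to 10 dph. Lamb1, a chain of most early basement membranes, read 167 to 208 CPM over the 8 libraries of 5 dph, 94.5 to 160 at 10 dph and 78.7 to 114 at 15 dph. The first 2 ages did not overlap. It fell by 0.56 ± 0.08 at each step (adjusted p = 3.43e-06 and 2.91e-06), and LAMB1 fell by 0.64 ± 0.11 from 10 to 15 dph (adjusted p = 5.53e-05). Lamb2 fell by 0.23 ± 0.08 from 5 to 10 dph (adjusted p = 0.0251), a call lost without 5 dph medium replicate 3, 5 dph high replicate 3, 10 dph low replicate 2 or 10 dph medium replicate 2 (-0.21 to -0.17), and once the length score was a covariate (-0.19, adjusted p = 0.0795). LAMA2, the chain of muscle basement membranes, LAMA3, that of epithelial ones, and LAMC3 rose in that step by 0.35 ± 0.11, 0.28 ± 0.11 and 0.33 ± 0.10. The LAMA3 call was lost without 5 dph low replicate 2, 5 dph high replicate 2, 10 dph low replicate 1 or 10 dph high replicate 1 (0.23 to 0.27).

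LAMA3 was the laminin called by diet. At 15 dph it read 34.9, 48.2 and 33.4 CPM with low, 29.7, 30.4 and 31.1 with medium and 26.3, 19.3 and 29.5 with high DHA, with low above and high below the medium libraries. It fell in high against low DHA by 0.63 ± 0.17 (adjusted p = 0.0276), a call lost without low replicate 2 (-0.45) or high replicate 2 (-0.48). The epidermis markers ran the other way at that age, summing to 580 ± 17.3 CPM with low, 673 ± 27.9 with medium and 900 ± 69.0 with high DHA (SD, n = 3), with 4 of 5 rows risen in high against low. Whether they bear on LAMA3 was not tested.

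Fibulins split at 15 dph. FBLN2, of elastic fibres and basement membranes, read 30.6, 16.6 and 17.7 CPM with low, 19.5, 18 and 15 with medium and 11.9, 10.8 and 15.2 with high DHA. It fell in high against low by 0.78 ± 0.22 (adjusted p = 0.035), a call lost without low replicate 1 (-0.44) or high replicate 1 or 2 (-0.73 and -0.68). fbln1 was the member called higher: it read 113, 119 and 124 with low, 91.8, 119 and 109 with medium and 138, 190 and 147 with high DHA, above all others. It rose by 0.42 ± 0.13 against low (adjusted p = 0.0421) and by 0.57 ± 0.13 against medium (adjusted p = 0.00513). The first call was lost without any 1 low library or high replicate 2 (0.27 to 0.45), and the second without high replicate 2 (0.41).

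FBLN5, needed for elastic fibre assembly, fell in medium against low DHA at 10 dph. It read 13.4, 16.7 and 13.6 CPM with low and 8.89, 7.41 and 9.33 with medium, without overlap, and 10.5, 10.8 and 13.9 with high DHA (-0.76 ± 0.16, adjusted p = 0.000905). With the length score in the fit the value was -0.76 and was not called (adjusted p = 0.062). FBLN7 stood at 3.85, 3.55 and 3.4 CPM with low and 4.46, 7.09 and 16.3 with medium DHA at 5 dph, a rise of 1.37 ± 0.36 (adjusted p = 0.0109) that was lost without medium replicate 3 (0.67) or 2 (1.52). At 10 dph FBLN7 read 9.94, 8.55 and 7.25 with low and 5.28, 3.13 and 2.35 with medium, a fall of 1.26 ± 0.37 that was lost without medium replicate 3 (-1.04). FBN1, a microfibril chain, rose from 10 to 15 dph by 0.46 ± 0.09 (adjusted p = 0.000313), a rise not called once the length score was a covariate. SPARC rose from 5 to 10 dph by 0.39 ± 0.09 (adjusted p = 0.001), from 437 to 547 CPM over the libraries to 559 to 716, with no overlap, and was not called by diet.

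The cross-linking enzymes changed with age in a few rows. LOXL4 read 1.81 to 3.11 CPM over the 5 dph libraries, 11.7 to 26.4 at 10 dph and 14.6 to 25.3 at 15 dph, and it rose by 2.80 ± 0.13 in the first step, or 6.95-fold (adjusted p = 1.98e-13). In high against low DHA at 10 dph it rose from 14.2, 15.1 and 13.7 to 25.3, 26.4 and 21.5 CPM, a log2 fold change of 0.77 ± 0.18 (adjusted p = 0.00561) that no single library ended. Once the length score was a covariate it was 0.66 and not called. The rows LOX and Lox, both of the founding family member, fell in medium against low DHA at 10 dph by 1.48 ± 0.36 and 0.84 ± 0.30. LOX read 4.66, 4.24 and 6.91 CPM with low and 2.64, 1.68 and 1.35 with medium. The Lox call was lost in all fits without a library except that without low replicate 2 (-0.92 to -0.81), while LOX kept its call in such fits. Neither row was called once the length score was a covariate, and both were little counted (1274 counts in all for LOX, 1488 for Lox). LOXL1, at 35 to 60.5 CPM, was called in no comparison without that covariate.

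The hydroxylases gained RNA at both steps. From 5 to 10 dph 5 of the 6 rows rose and from 10 to 15 dph all 6 rose, with medians of 0.35 and 0.39. P4HA1, the catalytic chain of prolyl 4-hydroxylase, did not pass in the first step (0.09 ± 0.05) and rose in the second by 0.39 ± 0.05 (adjusted p = 1.57e-06). Plod3 rose by 0.54 ± 0.08 (adjusted p = 8.58e-06) and PLOD1 by 0.55 ± 0.11 (adjusted p = 0.00026), the latter at 0.17 and not called once the length score was a covariate. With that covariate Plod3 and P4HA1 stayed called in the second step, and Plod1, P4HA3 and PLOD2 did not. The second rises of P4HA3 and PLOD2 (0.22 ± 0.09 and 0.20 ± 0.08) were each lost in 9 of 18 fits that left out 1 library, at 0.13 to 0.22.

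By diet, P4HA1 fell at 15 dph. It read 63.1, 55.7 and 60.3 CPM with low, 64.4, 65.8 and 63.1 with medium and 48.1, 41.1 and 54.8 with high DHA, with high below all others. The fall was 0.31 ± 0.09 against low (adjusted p = 0.0276) and 0.42 ± 0.09 against medium (adjusted p = 0.00367). The first call was lost without low replicate 1 or 3 or high replicate 1 or 2 (-0.32 to -0.21), and the second was kept without any 1 library. PLOD2, which hydroxylates the ends of collagen chains, rose in high against low DHA at 10 dph, from 15.8, 12.1 and 17.3 to 23.4, 24.3 and 18.2 CPM (0.54 ± 0.14, adjusted p = 0.0088). Without low replicate 2 (0.36) or high replicate 2 (0.46) it was not called, nor once the length score was a covariate (0.31, adjusted p = 0.406), nor without the 2 libraries of lowest length score (0.38, adjusted p = 0.0834). PLOD2 also rose in medium against low DHA at 10 dph, a call lost in 4 of 6 fits without a library (0.19 to 0.41). PLOD1 fell in medium against low DHA at 5 dph (-0.615), a call lost in 5 of 6 such fits. Neither was called once the length score was a covariate.

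Whether the response to high DHA differed between ages was tested directly. Between 5 and 10 dph the high to low difference shifted upward in 4 members and downward in 0 (18.1% of all rows called, 13.6% upward and 4.53% downward): COL13A1 by 1.30 ± 0.37 (adjusted p = 0.0211), Col23a1 by 0.86 ± 0.25 (adjusted p = 0.0241), Col7a1 by 0.90 ± 0.30 (adjusted p = 0.0405) and PLOD2 by 0.61 ± 0.21 (adjusted p = 0.046). Once the length score was a covariate 0 members were called, with shifts of 0.35 for COL13A1, 0.40 for Col23a1, 0.34 for Col7a1 and 0.22 for PLOD2. The count was 2, 2 and 1 without 5 dph low replicates 1, 2 and 3, 0 without either 5 dph high library, 7, 1 and 1 without 10 dph low replicates 1, 2 and 3, and 0 and 2 without 10 dph high replicates 1 and 2.

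Between 10 and 15 dph the difference shifted downward in 5 members and upward in 0 (3.44% of all rows called, 2.98% downward and 0.466% upward). COL10A1 shifted by -1.04 ± 0.22 (adjusted p = 0.0122), PLOD2 by -0.94 ± 0.19 (adjusted p = 0.0108), LOXL4 by -0.95 ± 0.25 (adjusted p = 0.0407), LAMA3 by -0.92 ± 0.25 and COL6A3 by -0.86 ± 0.24. The members' median shift was -0.39 against -0.05 over all rows. For COL10A1 the high to low difference went from 0.57 to -0.47, and for PLOD2 from 0.54 to -0.40. The sign of the estimate changed in both, but neither difference at 15 dph was called, so the test shows a shift and not a reversal. COL10A1 was kept without any 1 library and PLOD2 lost without 10 dph low replicate 2 (-0.75); LOXL4 and COL6A3 were lost in 7 and LAMA3 in 8 of 12 such fits. Once the length score was a covariate 0 members were called, with shifts of -0.90 for COL10A1 (adjusted p = 0.0726), -0.76 for PLOD2 (adjusted p = 0.0653), -0.86 for LOXL4 (adjusted p = 0.156), -0.69 for LAMA3 and -0.54 for COL6A3. The count was 8, 1 and 2 without 10 dph low replicates 1, 2 and 3, 2, 2 and 9 without 10 dph high replicates 1, 2 and 3, 2 and 8 without 15 dph low replicates 1 and 2, and 2 and 3 without 15 dph high replicates 1 and 2.

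Genes that work with the members were followed in 7 lists of 83 rows. Their calls are from the fit of all 26 libraries alone. How they move with the length score as a covariate or without single libraries is not given here. Procollagen folding and processing genes, chaperones and modifying enzymes of the collagen pathway, rose with age like the hydroxylases: 13 of 16 rows rose and 1 fell at each step (26.7% and 31.8% of all rows rose), among them SERPINH1, the collagen chaperone, by 1.11 ± 0.10 from 5 to 10 dph and Fkbp10, another, by 0.73 ± 0.07 from 10 to 15 dph. In medium against low DHA at 10 dph 9 of these 16 fell and 0 rose (10.6% of all rows fell), and in high against low at 15 dph 4 fell and 0 rose (4.47% of all rows fell). Over all lists 42 of 83 rows rose and 14 fell from 5 to 10 dph, where 26.7% of all rows rose and 31.3% fell. From 10 to 15 dph 31 rose and 20 fell, where the shares of all rows were 31.8% and 25.9%, close to those of the lists.

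In high against low DHA at 10 dph, 14 of the 83 rows rose and 3 fell, near the 19.4% and 4.39% of all rows, so the pooled counts set the lists apart from the table in neither direction. Single lists differed. All 3 falls were among the 16 procollagen folding and processing rows (0 rose, median -0.31), with P3h4 at -0.63 ± 0.17 and CRTAP at -0.40 ± 0.11. Of the 7 collagen and laminin receptor rows, 4 rose and 0 fell. Over all 83 rows, the 4 with the smallest p were timp3, a protease inhibitor (18.4 ± 2.23 to 31.8 ± 6.02 CPM, log2 fold change 0.79 ± 0.13), thbs1, a thrombospondin (0.98 ± 0.17), MMP9, a matrix protease (1.17 ± 0.23), and CCN4, a matricellular signal protein (0.79 ± 0.17). MMP9 went from 6.45 ± 0.379 CPM with low to 14.5 ± 7.22 with high DHA, so its high libraries were widely spread. At 15 dph 1 rose and 10 fell, where 2.99% of all rows rose and 4.47% fell. Postn and POSTN, rows of periostin, which binds type 1 collagen, fell from 179 ± 22.7 to 104 ± 16.4 CPM (-0.78 ± 0.12, adjusted p = 0.000726) and from 270 ± 47.1 to 185 ± 17.9 CPM (-0.54 ± 0.13). Cthrc1, a collagen triple helix repeat gene, fell by 0.81 ± 0.16, and ECM2, a matrix glycoprotein, rose by 0.80 ± 0.16.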

How the data were processed

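The authors deposited a table of raw counts per gene name (whole numbers, 7295 rows, 26 libraries), made from TruSeq libraries of total RNA, per the labels' protocols. DESeq2 is named without a version in the submitters' processing notes; of the aligner, counter, build and annotation, none is stated; each is not given in the sources used here. The 4 internal control samples were not analysed here. Replicate numbers come from titles, and the 5 dph high DHA library titled 3 carries the number 1 in its treatment label, which was tried as an alternative.

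From the counts, edgeR 4.0.16 (R 4.3.3) fitted 1 mean per group over all 26 libraries, after filterByExpr (7292 rows tested, 3 removed) and TMM scaling. Rows were tested two-sided by the robust quasi-likelihood F-test, with Benjamini-Hochberg adjustment at a threshold of 0.05. Residual degrees of freedom were 17 and the common biological coefficient of variation was 11.9%. Standard errors are the log2 fold change divided by the square root of F. Rows with different capitals were kept apart, and 30 member names matched a reference symbol. The length score used log2(CPM + 0.5). Code was tested on simulated data.

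The members, families, companion and marker lists were chosen with earlier results of these data known. Named were up to 6 called members per direction with the smallest p in high against low and age comparisons, up to 3 in the others, the chains of types 1, 2, 5 and 11, and up to 4 companions per comparison; any other member was named after its values were seen. Alternatives were DESeq2 1.42.0 and its size factors, no filter, a replicate block, the length score as a covariate, fits of the compared groups, summed rows, and fits without single libraries or the 2 of lowest length score. No sequences or coordinates were used here.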

Additional observations from a re-analysis of the deposited data

Results flagged for a closer look

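The change in the high against low DHA log2 difference between ages passed its own test (edgeR's quasi-likelihood test, adjusted p under 0.05) for 9 results. From 5 to 10 dph it was 1.3 for COL13A1, 0.86 for Col23a1, 0.9 for Col7a1 and 0.61 for PLOD2. From 10 to 15 dph it was -0.94 for PLOD2, -1.04 for COL10A1, -0.95 for LOXL4, -0.92 for LAMA3 and -0.86 for COL6A3. None of the 9 was called with the length score as a covariate. The shifts to 10 dph were then 0.35, 0.40, 0.34 and 0.22 in the order above, and those from 10 to 15 dph -0.76, -0.90, -0.86, -0.69 and -0.54.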

How the results depend on the processing

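Counts of called members moved by more than 1.5 times as follows. With the length score as a covariate, high against low DHA gave 0 at 10 dph and 13 at 15 dph, medium against low 0 at 5 dph and 3 at 10 dph, high against medium 1 at 10 dph and 19 at 15 dph, 15 against 10 dph 15, and both tests between ages 0. Without the 2 libraries of lowest length score, the counts were 3 and 8 for high against low DHA at 10 and 15 dph, 2 for medium against low at 5 dph and 2 for the 10 to 15 dph shift. With the compared groups alone, they were 13 and 0 for high against low at 5 and 15 dph, 3 for medium against low at 5 dph, and 12 and 1 for the shifts to 10 and 15 dph. DESeq2 gave 10 for high against low at 15 dph, 2 for high against medium at 10 dph and 10 for the 10 to 15 dph shift. Leaving out single libraries gave 2 to 8 for high against low at 10 dph and 0 to 9 at 15 dph, 0 to 22 for medium against low at 5 dph, 0 to 4, 0 to 13 and 2 to 13 for high against medium at 5, 10 and 15 dph, 0 to 7 for the 5 to 10 dph shift and 1 to 9 for the 10 to 15 dph shift. The labels do not say that replicate numbers mark shared tanks, and the deviations of same-numbered libraries did not all correlate above 0.1: 12 of 25 pairs across levels within an age did (median 0.06; 12 of 50 pairs with different numbers, median -0.03), and 11 of 25 across ages within a level (median 0.08; 8 of 50, median -0.03). All 3 pairs were above 0.1 for low and medium DHA at 15 dph (0.107 to 0.162), where the replicate block gave 0 called members as without it, and for high DHA at 10 and 15 dph (0.152 to 0.302), a pair of groups not compared alone. The replicate block gave 9 for high against low at 15 dph under either number, and moved no other count of calls by over 1.5 times. With it, col27a1b in high against low at 10 dph (-0.21, adjusted p = 0.0575), Lamb2 (-0.21, adjusted p = 0.0506) and Col9a2 (-0.33, adjusted p = 0.0712) from 5 to 10 dph were not called (the last 2 were with the number in the treatment label as the block), and Col11a1 in high against low at 15 dph was (-0.61, adjusted p = 0.0273). With rows that differ in capitals summed, COL21A1 fell by 0.69 from 10 to 15 dph (adjusted p = 0.0042). The cause of these moves was not tested. For the 93 results on named members, the alternatives gave the same direction and side of the threshold 1679 times, ended a call 149 times, made one 18 times and turned 1 direction. Depth limits the least counted rows most, such as COL5A3 with 1198 counts in all.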
